A study of Homo sapiens with 6 samples.

Results

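The 39 genes described here encode the enzymes that load amino acids onto transfer RNAs, together with a few proteins that work beside them. They were taken by name from the per-gene tables of LX-2 cells, a human line that was immortalised from hepatic stellate cells, the matrix-producing cells of the liver, and all 39 were found among 21533 listed genes. Of these, 19 encode cytosolic aminoacyl-tRNA synthetases (names ending in 1, with FARSA and FARSB) and 15 encode mitochondrial ones (names ending in 2). The other 5 are TARS3, a further threonyl-tRNA synthetase gene, XPOT, which exports mature tRNAs from the nucleus, and AIMP1, AIMP2 and EEF1E1, non-enzymatic subunits of the cytosolic multisynthetase complex.

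RNA was sequenced from 3 PERK siRNA samples and 3 control siRNA samples. The cells of every sample were transfected with siRNA, then given the saturated fatty acid palmitic acid, and RNA was taken 24 h later. Samples not given the fatty acid were not analysed here, so each difference is one between siRNAs in lipid-treated cells of a single line. No label says that the samples of a group were separate cultures, and the spread behind each p-value is then that between these samples and may be technical.

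Each synthetase activates a particular amino acid and joins it to the tRNAs that carry that amino acid's anticodons. Cytosolic and mitochondrial translation mostly use separate enzymes, all encoded in the nucleus, while GARS1 and KARS1 supply both compartments. Several cytosolic enzymes are held together in the multisynthetase complex. PERK, encoded by EIF2AK3, phosphorylates eIF2α under endoplasmic reticulum stress, which lowers translation in general and favours translation of the transcription factor ATF4. Many cytosolic synthetase genes are known ATF4 targets, through a composite element that ATF4 binds with a C/EBP factor.

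The samples held 17937141 to 19585872 total exon reads, and a floor of 3 reads corresponded to 0.153 to 0.167 CPM (reads of a gene scaled to library size), a limit that covers counting error only. EIF2AK3, the targeted gene, stood at 4.37, 4.96 and 5.52 CPM in PERK siRNA samples, against 12.9, 13.0 and 13.9 CPM in control siRNA samples (log2 fold change -1.42, SE 0.10, adjusted p = 3.05e-13 by edgeR's quasi-likelihood test). All 10 stellate and mesenchymal markers checked had reads, with summed levels of 8616 to 8662 CPM of total exon reads in PERK siRNA samples and 7853 to 8127 CPM in control siRNA samples. VIM, COL1A1 and SPARC made up most of that sum, and of the 10 markers 6 were higher and 2 lower with PERK siRNA, among them ACTA2 at 386% and COL3A1 at 53.8% of the control level. Of 6 hepatocyte markers 4, among them ALB, were at 0, and the list summed to 3.69 to 4.35 CPM in PERK siRNA samples and 4.15 to 5.45 CPM in control siRNA samples. Leukocyte markers (2 of 5 at 0, CD163 and C1QA) summed to 7.52 to 8.08 CPM in PERK siRNA samples and 10.3 to 10.9 CPM in control siRNA samples. Endothelial markers (0 of 5 at 0) summed to 3.01 to 3.63 CPM in PERK siRNA samples and 11.3 to 11.6 CPM in control siRNA samples. Cholangiocyte markers (1 of 4 at 0, CFTR) summed to 6.52 to 6.92 CPM in PERK siRNA samples and 11.05 to 13.02 CPM in control siRNA samples. The endothelial difference was carried by PECAM1 (0.63 CPM on average in PERK siRNA samples and 8.95 CPM in control siRNA samples), while VWF overlapped and KDR was 2.03 CPM in PERK siRNA samples and 1.49 CPM in control siRNA samples (adjusted p = 0.076). CD14 and KRT7 made up most of the leukocyte and cholangiocyte sums. All marker sums were scaled to library size alone, while levels of single genes were also scaled by the TMM factors described below. The part of these marker differences in the results on the synthetases was not tested.

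Synthetase mRNAs changed by small amounts and more often downward than upward. With PERK siRNA 19 of the 39 genes fell and 8 rose at an adjusted p under 0.05 by edgeR's quasi-likelihood test, and 12 did not pass. Among all 12973 genes tested, 69.5% passed, 35.0% lower and 34.4% higher, while among the 39 genes 69.2% passed, 48.7% lower and 20.5% higher. The share that passed was therefore near the background. The median log2 fold change was -0.10 over the 39 genes and 0.0038 over all genes tested. Only 10.3% of the 39 genes had an absolute log2 fold change over 0.5, compared with 27.4% of all genes tested. Against a null of a 1.2-fold change, 11 of the 39 fell (28.2%) and 1 rose (2.56%), where 18.1% of all genes passed in each direction.

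All 39 genes passed the filter on low counts, with 115 to 10756 reads per sample. The PERK siRNA samples lay all below the control siRNA samples for 22 of them and all above for 8. Over all genes tested, 71.8% had groups that did not overlap, 36.0% lower and 35.8% higher. The 3 genes with separate groups that did not pass the test were RARS1, KARS1 and AIMP1.

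**Figure D1:**
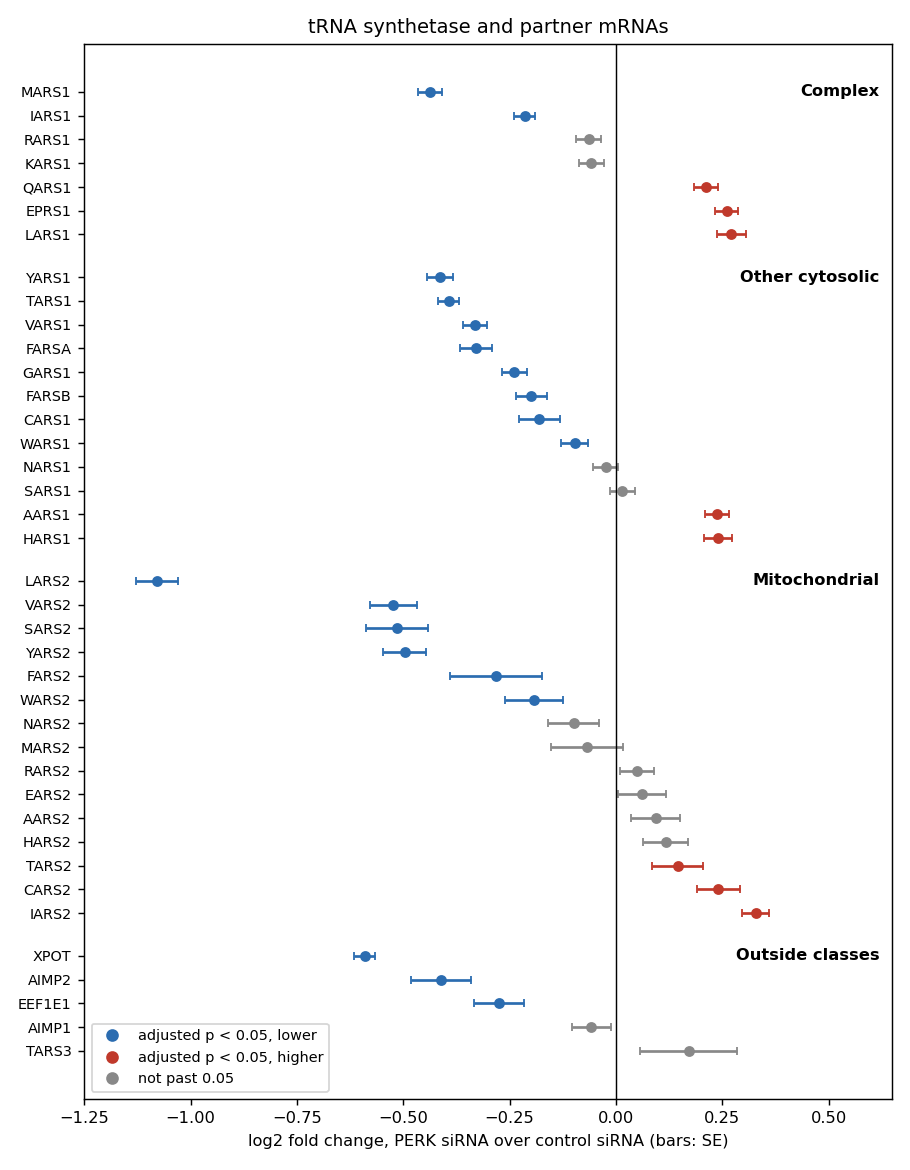
Log2 fold change of PERK siRNA over control siRNA for the 39 genes, grouped by class, with SE bars (3 samples per group) and colours for the edgeR call at an adjusted p of 0.05. LARS2 stands apart at -1.08, XPOT follows at -0.59, and the highest value is 0.33 for IARS2.

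Of the 7 synthetases of the multisynthetase complex on the list, 3 rose (LARS1, EPRS1 and QARS1), 2 fell (MARS1 and IARS1) and 2 did not pass (RARS1 and KARS1), with a median log2 fold change of -0.06. These shares (28.6% lower, 42.9% higher) were near those of all genes tested (35.0% lower, 34.4% higher). MARS1, the methionyl-tRNA synthetase gene (ENSG00000166986; chromosome 12, 57475445 to 57517569, plus strand, GRCh38), stood at 131, 129 and 131 CPM in PERK siRNA samples and at 176, 172 and 180.1 CPM in control siRNA samples. All PERK siRNA samples lay below all control siRNA samples, with means of 130.1 ± 1.15 CPM in PERK siRNA samples and 176 ± 4.29 CPM in control siRNA samples (SD, n = 3 each). The log2 fold change was -0.44 (SE 0.03, adjusted p = 3.75e-14). Of the annotated exon bases of MARS1, 7.38% overlap ARHGAP9 and 5.05% overlap DDIT3, both on the opposite strand. DDIT3, which encodes CHOP, was also lower (-0.50, adjusted p = 0.00012). It averaged 6.22 CPM in PERK siRNA samples and 8.77 CPM in control siRNA samples, and its part in the MARS1 count was not tested. Whether the counting used strand is not given in the sources used here.

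IARS1, for isoleucine (ENSG00000196305; chromosome 9, 92210207 to 92293756, minus strand), was the other complex enzyme that fell. It had 361, 347 and 354 CPM in PERK siRNA samples, against 406, 409 and 417 CPM in control siRNA samples, a separation of groups in every sample (log2 fold change -0.21, SE 0.02, adjusted p = 7.3e-09).

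EPRS1 encodes the bifunctional enzyme for glutamate and proline (ENSG00000136628; chromosome 1, 219968601 to 220046658, minus strand). It had 217, 212 and 206 CPM in PERK siRNA samples and 178, 176 and 177 CPM in control siRNA samples (0.26, SE 0.03, adjusted p = 1.2e-09). LARS1, for leucine, also a sensor in the mTORC1 pathway (ENSG00000133706; chromosome 5, 146113038 to 146182660, minus strand), had 119, 129 and 128 CPM in PERK siRNA samples and 104, 101 and 108 CPM in control siRNA samples (0.27, SE 0.03, adjusted p = 4.8e-08). Both were higher in every PERK siRNA sample than in any control siRNA sample. QARS1, for glutamine, rose by a similar amount (0.21), at 175 ± 5.94 CPM in PERK siRNA samples and 151 ± 1.38 CPM in control siRNA samples (SD, n = 3 each). RARS1, for arginine (-0.06, adjusted p = 0.053), and KARS1, for lysine (-0.06, adjusted p = 0.084), did not pass, although their groups did not overlap. RARS1 did pass without PERK siRNA sample 1 (adjusted p = 0.024), without control siRNA sample 3 (0.045), with no scaling factors (0.024) and with no filter (0.036), and KARS1 with no scaling factors (0.041).

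The scaffold genes of the same complex were lower where they passed. AIMP2 (ENSG00000106305; chromosome 7, 6009245 to 6023834, plus strand) had 14.0, 15.6 and 14.0 CPM in PERK siRNA samples and 20.2, 18.7 and 19.1 CPM in control siRNA samples (-0.41, SE 0.07, adjusted p = 7.7e-06). EEF1E1, also called AIMP3 (ENSG00000124802; chromosome 6, 8073360 to 8102578, minus strand), had 22.5, 21.6 and 23.6 CPM in PERK siRNA samples and 27.3, 26.0 and 28.6 CPM in control siRNA samples (-0.27, SE 0.06, adjusted p = 0.00015). In both genes every PERK siRNA sample was below every control siRNA sample. AIMP1, the third scaffold gene, differed little, with 38.5 ± 0.38 CPM in PERK siRNA samples and 40.1 ± 1.04 CPM in control siRNA samples (SD, n = 3 each), and did not pass (-0.06, adjusted p = 0.26). Reads of AIMP2 and EEF1E1 were not all placed uniquely. The unique shares were 79.2% and 51.8% in PERK siRNA samples and 76.9% and 51.0% in control siRNA samples. Where the other reads also fit is not given in the sources used here. EEF1E1 shares 18.7% of its exon bases with the read-through gene EEF1E1-BLOC1S5 on the same strand, and AIMP2 overlaps EIF2AK1 on the opposite strand over 28.9%. On uniquely placed reads alone both remained lower (AIMP2 -0.37, adjusted p = 3.7e-05; EEF1E1 -0.25, adjusted p = 0.0036).

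Of the 12 cytosolic synthetases outside the complex 8 fell, 2 rose (AARS1 and HARS1) and 2 did not pass (NARS1 and SARS1), with a median of -0.19. This was 66.7% lower and 16.7% higher, beside 35.0% lower and 34.4% higher among all genes tested. TARS1, the threonyl-tRNA synthetase gene (ENSG00000113407; chromosome 5, 33440696 to 33469539, plus strand), had the highest length-corrected level of the 39 genes, 415 TPM (reads scaled to transcript length and depth) on average in PERK siRNA samples and 547 TPM in control siRNA samples. Its counts were 429, 417 and 412 CPM in PERK siRNA samples and 547, 552 and 553 CPM in control siRNA samples. The groups were well apart and the log2 fold change was -0.39 (SE 0.02, adjusted p = 7.1e-15).

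YARS1, for tyrosine (ENSG00000134684; chromosome 1, 32775237 to 32818153, minus strand), had 94.5, 94.7 and 92.2 CPM in PERK siRNA samples and 125, 126 and 124 CPM in control siRNA samples (-0.41, SE 0.03, adjusted p = 7.4e-13). VARS1, for valine, which binds the elongation factor eEF1 instead of the multisynthetase complex (ENSG00000204394; chromosome 6, 31777518 to 31795953, minus strand), had 132, 133 and 137 CPM in PERK siRNA samples and 170.4, 164 and 171 CPM in control siRNA samples (-0.33, SE 0.03, adjusted p = 2.6e-11). FARSA, the catalytic subunit of the phenylalanine enzyme (ENSG00000179115; chromosome 19, 12922479 to 12934037, minus strand), had 82.1, 74.9 and 79.5 CPM in PERK siRNA samples and 103, 97.3 and 96.2 CPM in control siRNA samples (-0.33, SE 0.04, adjusted p = 6.6e-09). In none of these 3 genes did the groups overlap. FARSB, which encodes the partner subunit of FARSA in the same enzyme, fell too, to 66.2 ± 1.18 CPM in PERK siRNA samples against 76.0 ± 2.07 CPM in control siRNA samples (SD, n = 3 each; -0.20).

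The remaining falls in this group were smaller. GARS1, for glycine (-0.24), CARS1, for cysteine (-0.18), and WARS1, for tryptophan (-0.10), passed the test, but the WARS1 call was lost without control siRNA sample 1 (adjusted p = 0.061) and with DESeq2 (0.055). AARS1, for alanine, rose to 162 ± 2.42 CPM in PERK siRNA samples, against 137 ± 2.78 CPM in control siRNA samples (SD, n = 3 each; 0.24, adjusted p = 1.6e-08). HARS1, for histidine, rose to 121 ± 5.11 CPM in PERK siRNA samples, against 102 ± 1.97 CPM in control siRNA samples (SD, n = 3 each; 0.24, adjusted p = 2.7e-07). NARS1, for asparagine (-0.02, adjusted p = 0.47), and SARS1, for serine (0.015, adjusted p = 0.65), had overlapping groups.

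XPOT had the largest fall outside the mitochondrial enzymes. This export factor gene (ENSG00000184575; chromosome 12, 64404350 to 64451127, plus strand) had 201, 199 and 202 CPM in PERK siRNA samples and 303, 303 and 300.1 CPM in control siRNA samples. Its 3 samples in each group differed little among themselves, and 66.4% of the control level was left (log2 fold change -0.59, SE 0.02, adjusted p = 1.3e-18). TARS3, of low abundance at 7.34 TPM in PERK siRNA samples and 6.55 TPM in control siRNA samples on average, did not pass (0.17, adjusted p = 0.19), but did without PERK siRNA sample 3 (0.29, adjusted p = 0.032).

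**Figure D2:**
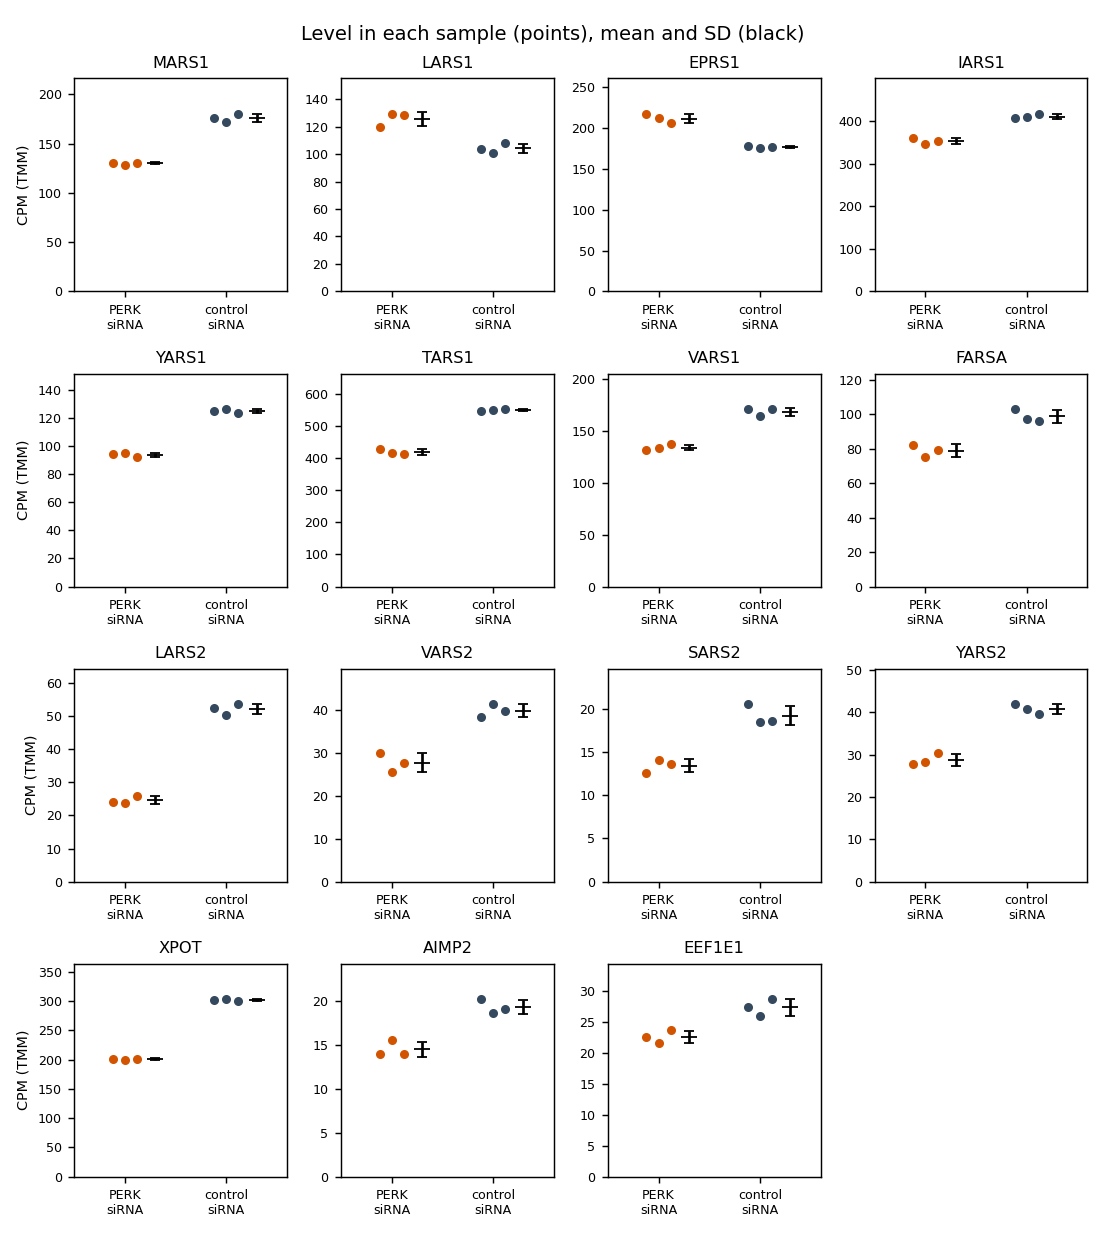
CPM, normalised by TMM factors, of the genes with the largest changes in each class, with 1 point per sample and the mean and SD in black (n = 3 per group). MARS1, XPOT and LARS2 show PERK siRNA samples well below control siRNA samples, while LARS1 and EPRS1 lie above them.

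Mitochondrial synthetases included the largest single change. Of the 15 genes 6 fell, 3 rose and 6 did not pass, with a median of -0.07. The share that passed was 60%, below the 69.5% of all genes tested. By direction 40% were lower and 20% higher, beside 35% lower and 34.4% higher among all genes tested. LARS2, the mitochondrial leucyl-tRNA synthetase gene (ENSG00000011376; chromosome 3, 45388506 to 45549421, plus strand), had 24.2, 23.8 and 26.0 CPM in PERK siRNA samples and 52.3, 50.4 and 53.6 CPM in control siRNA samples. It was reduced to 47.3% of the control level, and the groups were far apart in relation to their spread (24.6 ± 1.16 CPM in PERK siRNA samples and 52.1 ± 1.59 CPM in control siRNA samples; SD, n = 3 each). The log2 fold change was -1.08 (SE 0.05, adjusted p = 1.0e-17), and all of its reads were placed uniquely. Its exons in GENCODE v29, 6829 bases, overlap no other annotated gene. The deposited counts covered 10812 exon bases, so part of the counted sequence was not checked for overlap.

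VARS2, for valine (ENSG00000137411; chromosome 6, 30908242 to 30926459, plus strand), had 30.05, 25.6 and 27.8 CPM in PERK siRNA samples and 38.5, 41.5 and 39.9 CPM in control siRNA samples (-0.52, SE 0.05, adjusted p = 1.25e-09). YARS2, for tyrosine (ENSG00000139131; chromosome 12, 32727490 to 32755902, minus strand), had 27.8, 28.2 and 30.4 CPM in PERK siRNA samples and 41.9, 40.7 and 39.5 CPM in control siRNA samples (-0.50, SE 0.05, adjusted p = 7.1e-10). SARS2, for serine (ENSG00000104835; chromosome 19, 38915266 to 38930896, minus strand), had 12.6, 14.1 and 13.6 CPM in PERK siRNA samples and 20.5, 18.5 and 18.6 CPM in control siRNA samples (-0.52, SE 0.07, adjusted p = 3.7e-07). All 3 were lower in every PERK siRNA sample than in any control siRNA sample. The SARS2 count is uncertain: 20.5% of its reads were placed uniquely, 46.2% of its exon bases are shared with AC011455.2 on the same strand and 10.8% with MRPS12 on the opposite strand. On its 42 to 80 uniquely placed reads per sample SARS2 was also lower (-0.40, adjusted p = 0.021). VARS2 shares 22.0% of its exon bases with GTF2H4 on the same strand, and all of its counted reads were placed uniquely.

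IARS2, the mitochondrial enzyme gene for isoleucine, was the most abundant of the 15, with 130 TPM in PERK siRNA samples and 104 TPM in control siRNA samples on average. It had the largest rise of all 39 genes, with 129, 133 and 133 CPM in PERK siRNA samples and 106, 108 and 101 CPM in control siRNA samples, groups that did not overlap (0.33, SE 0.03, adjusted p = 2.2e-10). CARS2, for cysteine, rose as well (0.24, adjusted p = 0.00014), with 35.3 ± 1.48 CPM in PERK siRNA samples and 29.9 ± 0.90 CPM in control siRNA samples (SD, n = 3 each).

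Calls for 3 mitochondrial enzymes depended on single samples. TARS2, for threonine, was higher (0.14, adjusted p = 0.031), a call lost without PERK siRNA sample 2 (0.18), without control siRNA sample 1 (0.17) or 3 (0.065), and with DESeq2 (0.20). FARS2, for phenylalanine, was lower (-0.28, adjusted p = 0.022) at 115 or more reads per sample, a call lost without PERK siRNA sample 1 (0.055) or 3 (0.17), without control siRNA sample 1 (0.071), and with DESeq2 (0.15). WARS2, for tryptophan, was lower (-0.19, adjusted p = 0.014), a call lost without PERK siRNA sample 3 (0.057), without control siRNA sample 2 (0.074), and with DESeq2 (0.12). The 6 that did not pass ranged in log2 fold change from -0.10 for NARS2, for asparagine, over MARS2 (-0.07), RARS2 (0.05), EARS2 (0.06) and AARS2 (0.09) to 0.12 for HARS2.

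Cytosolic enzyme genes were more abundant than mitochondrial ones. They had a median level of 110.2 TPM in PERK siRNA samples and 135 TPM in control siRNA samples, and mitochondrial enzyme genes 21.6 TPM in PERK siRNA samples and 30.8 TPM in control siRNA samples. Of 19 cytosolic enzymes 10 fell and 5 rose (52.6% lower), and of 15 mitochondrial enzymes 6 fell and 3 rose (40.0% lower), against 35.0% lower and 34.4% higher among all genes tested. The median log2 fold change was -0.10 over cytosolic and -0.07 over mitochondrial enzymes. Against the 1.2-fold null the shares that fell were 26.3% of cytosolic and 26.7% of mitochondrial enzymes, beside 18.1% of all genes tested. The shares that rose were 0% of cytosolic and 6.67% of mitochondrial enzymes, beside 18.1% of all genes tested. A difference between the classes as sets was not tested. Summed over the class, cytosolic enzymes took 2879 ± 27.5 CPM in PERK siRNA samples and 3129 ± 23.3 CPM in control siRNA samples (SD, n = 3 each), 92.0% of the control sum, and mitochondrial enzymes 485 ± 3.51 CPM in PERK siRNA samples and 506 ± 4.38 CPM in control siRNA samples, 95.8%. Single genes weighed heavily in both sums. LARS2 alone (24.6 CPM in PERK siRNA samples and 52.1 CPM in control siRNA samples) fell by more than the mitochondrial sum did. TARS1 (419 CPM in PERK siRNA samples and 551 CPM in control siRNA samples) had the largest part in the cytosolic fall. On the TPM scale the summed mitochondrial levels overlapped, at 452 to 469 TPM in PERK siRNA samples and 465 to 480 TPM in control siRNA samples.

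The enzymes of both compartments were also compared by amino acid. For 15 amino acid pairs, with EPRS1 set beside EARS2 and FARSA beside FARS2, the cytosolic over mitochondrial ratio was lower in all PERK siRNA samples than in all control siRNA samples for 5 pairs, higher for 4 pairs, and overlapping for 6. With 3 samples against 3 the exact two-sided permutation test cannot go below p = 0.10, which these 9 pairs reached (0.17 after adjustment over the 15 pairs). For single genes the background of groups that did not overlap was 71.8%. A ratio carries the spread of both genes, and no such share was computed for other pairs of genes. The 9 of 15 pairs therefore have no matching background, and the values of the pairs are given as a description.

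The leucine pair moved furthest apart, since LARS1 rose and LARS2 fell. The LARS1 over LARS2 ratio in TPM was 6.66, 7.32 and 6.65 in PERK siRNA samples and 2.67, 2.69 and 2.71 in control siRNA samples, a difference in the log2 ratio of 1.35. The isoleucine pair went the other way, with IARS1 lower and IARS2 higher, and its ratio was 1.59, 1.48 and 1.51 in PERK siRNA samples and 2.17, 2.16 and 2.34 in control siRNA samples (-0.54). For threonine the TARS1 over TARS2 ratio was 12.3 ± 0.70 in PERK siRNA samples and 17.8 ± 0.90 in control siRNA samples (SD, n = 3 each; -0.54). SARS1 over SARS2 was higher (0.53), within the doubt about SARS2 reads. Cysteine was the pair whose order changed: CARS1 over CARS2 was 0.81 ± 0.06 in PERK siRNA samples and 1.08 ± 0.04 in control siRNA samples (SD, n = 3 each). In tyrosine both enzyme genes fell together, and the YARS1 over YARS2 ratio overlapped between groups at 1.34 ± 0.08 in PERK siRNA samples and 1.27 ± 0.03 in control siRNA samples (SD, n = 3 each).

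**Figure D3:**
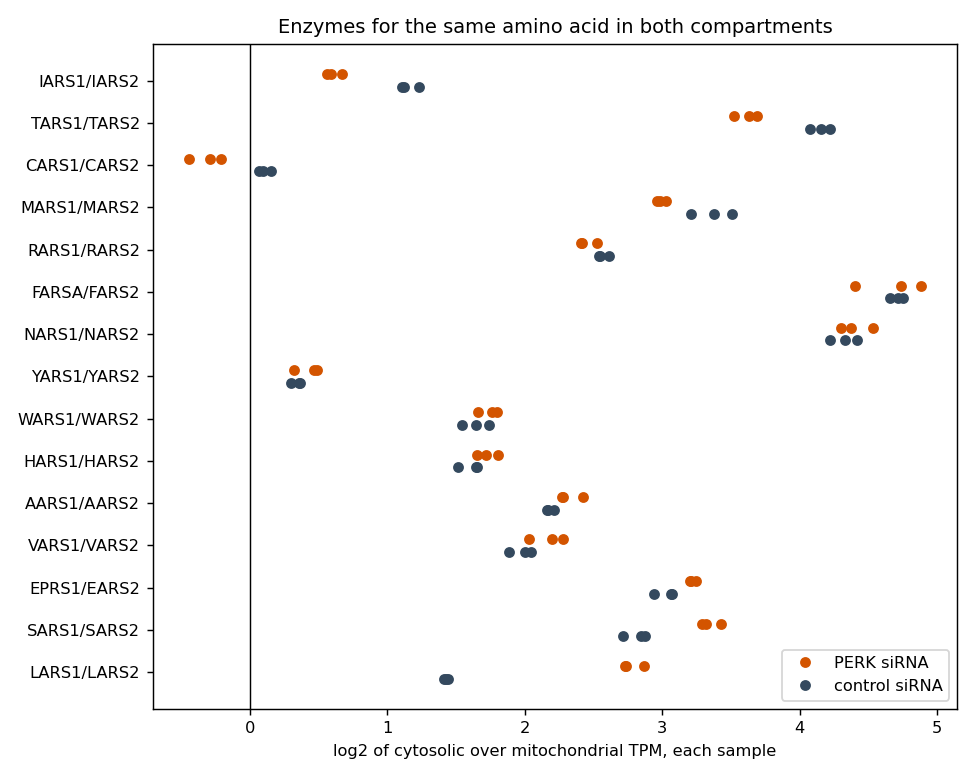
Log2 of the cytosolic over mitochondrial TPM for 15 amino acid pairs, with 1 point per sample (3 PERK siRNA and 3 control siRNA samples), ordered by the difference between groups. IARS1/IARS2 at the top lies lower with PERK siRNA (-0.54) and LARS1/LARS2 at the bottom lies higher (1.35).

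Of 11 cytosolic enzymes widely described as ATF4 targets and XPOT, 8 fell (XPOT, MARS1, YARS1, TARS1, GARS1, IARS1, CARS1 and WARS1), 2 rose (EPRS1 and AARS1) and 2 did not pass (NARS1 and SARS1), with a median of -0.20. This was 66.7% lower and 16.7% higher, beside 35.0% lower and 34.4% higher among all genes tested. Of the 8 other cytosolic enzymes 3 fell and 3 rose (37.5% each), near that background, with a median of -0.06. A difference between these groups was not tested. ATF4 mRNA itself was higher, with 115 ± 5.35 CPM in PERK siRNA samples and 89.0 ± 2.02 CPM in control siRNA samples (SD, n = 3 each; 0.38, adjusted p = 1.1e-10), and ATF4 protein was not measured.

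Promoter windows of 300 bases (250 before and 50 after the RefSeq transcript start, GRCh38.p14) were matched for 33 of the 39 genes, and AARS2, LARS1, TARS3, VARS1, VARS2 and YARS1 had no entry. The windows were searched on both strands for TGATGNAA, the core of the ATF4-C/EBP composite element. These letters stood in the windows of 8 of the 33 genes (24.2%), compared with 4.46% of 27305 genes with such windows. They were found in 7 of 16 cytosolic enzymes, all 7 among the ATF4 targets named above, and in 1 of 13 mitochondrial enzymes. Of the 8 genes 6 fell, AARS1 rose and NARS1 did not pass, where 16 of the 33 genes with windows fell and 7 rose. Among all genes tested 35.0% were lower and 34.4% higher. A link between the letters and the falls was not tested. A match is a description of the letters and not evidence of binding.
The 8 stretches are shown to compare their cores, which are in capitals. TTGCATCA is TGATGCAA read from the other strand.
MARS1 (chr12:57488053-57488082, plus): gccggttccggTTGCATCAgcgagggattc
TARS1 (chr5:33440956-33440985, plus): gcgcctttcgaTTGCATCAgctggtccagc
IARS1 (chr9:92293692-92293721, minus): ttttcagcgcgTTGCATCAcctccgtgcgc
CARS1 (chr11:3057407-3057436, minus): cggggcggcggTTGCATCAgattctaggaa
AARS1 (chr16:70289675-70289704, minus): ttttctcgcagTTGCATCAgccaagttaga
NARS1 (chr18:57621804-57621833, minus): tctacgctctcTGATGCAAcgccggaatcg
GARS1 (chr7:30594834-30594863, plus): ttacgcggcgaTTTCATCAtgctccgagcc
YARS2 (chr12:32756076-32756105, minus): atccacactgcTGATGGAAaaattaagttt
The full TGATGCAA, in either orientation, was in 6 cytosolic enzyme genes, 4 of which fell, while AARS1 rose and NARS1 did not pass. Of all 19 cytosolic enzymes 10 fell and 5 rose. In 6 of the 8 genes the core began within 33 bases of a RefSeq transcript start, and in AARS1 and YARS2 it began 187 and 197 bases before it. TARS1, GARS1 and CARS1 each have another RefSeq start, whose window does not hold the core.

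**Figure D4:**
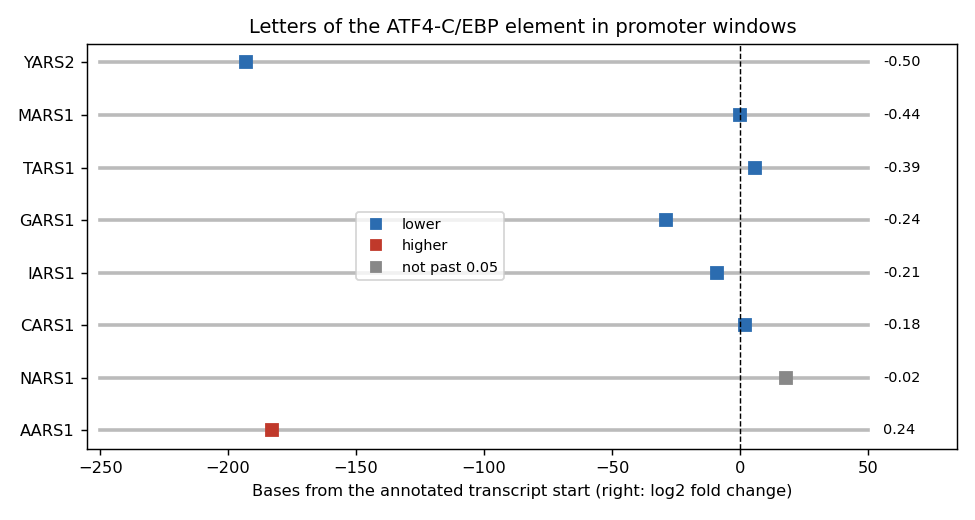
Place of the ATF4-C/EBP core letters in the 300-base promoter windows of 8 genes, with each square at the core's middle. Places are in bases from the RefSeq transcript start of the window that holds the core. The log2 fold change of PERK siRNA over control siRNA is on the right. Genes that fell (YARS2 to CARS1), NARS1 and AARS1 carry the letters, mostly near the start.

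HARS1 and HARS2 lie head to head and share their promoter. Of the exon bases of HARS2, 11.7% overlap HARS1 on the opposite strand. The sequence is shown because both genes' windows hold the same 2 matches to CCGGAAGT, a core bound by ETS factors, read from opposite strands, here given on the HARS2 strand with the matches in capitals.
Proximal to HARS1 (chr5:140691361-140691390, plus): cagcaaggatgACTTCCGGctatcgagtcg
Proximal to HARS2 (chr5:140691436-140691465, plus): tccggctcctcCCGGAAGTgccgaagctgg
HARS1 rose by 0.24, and HARS2 stood at 31.3, 31.0 and 30.23 CPM in PERK siRNA samples and 28.0, 27.1 and 30.23 CPM in control siRNA samples. The HARS2 groups overlapped at their edges and the gene did not pass (0.12, adjusted p = 0.056), but did without control siRNA sample 3 (0.16, adjusted p = 0.019) and on uniquely placed reads (0.12, adjusted p = 0.043). CCGGAAGT was in the windows of 7 of the 33 genes (21.2%, compared with 4.95% of 27305 genes with such windows). The site of NRF1, a regulator of respiratory chain genes, was in 6 (18.2%, compared with 6.98%). Those 27305 genes were not limited to genes with reads in these cells. No class of calls held most of either. Of the genes with windows, the ETS letters were in 3 of 16 that fell, 1 of 7 that rose and 3 of 10 that did not pass. HARS1 and HARS2, which share their matches, are both counted there. The NRF1 letters were in 3 of 16 that fell, 1 of 7 that rose and 2 of 10 that did not pass.

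Of 15 other genes of tRNA charging and delivery, 8 rose and 3 fell, with a median of 0.10, against 34.4% higher and 35.0% lower among all genes tested. With DESeq2 the calls of PARS2 (adjusted p = 0.069), QRSL1 (0.17) and AARSD1 (0.15) were lost, genes named here after their values were seen. The groups of QRSL1 and of AARSD1 overlapped, and both calls were also lost when some single samples were left out. Only 0.83% of AARSD1 reads were placed uniquely. EEF1A1, the elongation factor that carries charged tRNAs to the ribosome, rose (0.24, adjusted p = 2.6e-09), with 12807 ± 194 CPM in PERK siRNA samples and 10881 ± 405 CPM in control siRNA samples (SD, n = 3 each). EEF1G, a subunit of its exchange factor, also rose on total exon reads (0.25, adjusted p = 4.4e-10), but only 0.054% of its reads were placed uniquely. On those the call was lost (0.15, adjusted p = 0.68), but they are too few to decide on a change of this size. GATC, a subunit of the mitochondrial enzyme that makes glutaminyl-tRNA by amidation, had the largest change on that list. It stood at 43.9, 42.6 and 41.5 CPM in PERK siRNA samples and 64.9, 61.3 and 66.8 CPM in control siRNA samples (-0.59, SE 0.04, adjusted p = 3.9e-13), with 78.5% of reads placed uniquely. TRNT1, which adds the CCA end that tRNAs need for charging, had 28.5, 27.8 and 28.98 CPM in PERK siRNA samples and 31.8, 34.2 and 32.9 CPM in control siRNA samples (-0.21, SE 0.05, adjusted p = 0.000595). In both GATC and TRNT1 every PERK siRNA sample lay below every control siRNA sample.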

How the data were processed

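Strand-directional RNA-seq libraries were made from column-purified total RNA, per the labels' protocols. The deposited tables hold 2 kinds of count for each gene, total and unique exon reads, per the file headers, and TPM computed by the authors, which equalled total exon reads per exon length scaled to a common sum. The submitters' processing notes name hg38. The sources used here do not name the aligner, the counter or the annotation release. Groups and replicate numbers came from the sample titles.

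Total exon reads were tested with edgeR 4.0.16 (R 4.3.3): TMM factors, default expression filter, robust quasi-likelihood fit, no covariate, p-values adjusted by Benjamini and Hochberg over 12973 genes at a threshold of 0.05. CPM are normalised by TMM factors unless said otherwise, and TPM were used for levels between genes. Between replicates the chi-square statistic was 1.65 to 2.31 times its degrees of freedom, so none was taken for a copy. The fit was tested on simulated data. Some genes of the list of other charging genes are not reported here. Members and lists were chosen with earlier results of these data known. Values are given in full for up to 4 genes per group with the largest changes. Positions and exon overlaps are from GENCODE v29 (GRCh38), whose exon lengths can differ from those of the deposited counts, and promoter letters are from RefSeq. Alternatives were other scaling, filters, DESeq2 1.42.0, a replicate block, leaving out each sample, unique exon reads and a 1.2-fold null.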

Additional observations from a re-analysis of the deposited data

How the results depend on the processing

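Across 14 alternatives no gene of the list that passed the test changed direction, and 19 of the 39 kept their side of the threshold in every alternative. Against a null of a 1.2-fold change 5 of 19 cytosolic enzymes fell and 0 rose, and 4 of 15 mitochondrial enzymes fell and 1 rose. Over all genes 2344 fell (18.1%) and 2345 rose (18.1%) in that test, where 4545 fell and 4469 rose against no change. Leaving out a sample in turn gave 9 to 11 falls and 5 rises among cytosolic enzymes, 4 to 6 falls and 2 to 3 rises among mitochondrial enzymes, and 3 falls and 0 to 1 rises among the other 5 genes. Over all genes 65.2% to 66.5% passed in these runs, compared with 69.5% with all samples. Pairs with a higher ratio numbered 4 to 7, with 7 when control siRNA sample 1 was left out, and pairs with a lower ratio stayed at 5. Groups that do not overlap stay so when a sample is left out. These pair counts could therefore only stay or rise, and say nothing about stability. Leaving out a sample, MARS2 (-0.07) ranged from -0.12 to 0.014, the last without control siRNA sample 1. MTFMT (0.0041) turned to -0.0068 with no scaling factors, -0.0042 with no filter, -0.019 without PERK siRNA sample 1 and -0.049 without control siRNA sample 3, and reached 0.047 without control siRNA sample 2. None of these passed the test, and the cause was not tested. With DESeq2, 4 mitochondrial enzymes fell and 2 rose. That setting passed 44.9% of the 16842 genes with a read, where the main test passed 69.5% of 12973. With the replicate number as a replicate block 10 cytosolic enzymes fell and 5 rose, as without it, and over all genes 4543 fell and 4460 rose. Same-numbered samples did not deviate together (correlations of -0.032 to 0.011), so the numbers were not taken as pairs. Depth limits FARS2, TARS3 and the uniquely placed reads of SARS2.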
